A study of Homo sapiens with 8 samples.

Results

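The genes described here are 10 negative regulators of growth factor signalling through the kinase ERK, chosen by name: the dual-specificity phosphatases DUSP1, DUSP4, DUSP5, DUSP6 and DUSP8, the Sprouty genes SPRY2 and SPRY4, the Sprouty-related genes SPRED1 and SPRED2, and PHLDA1. They are 10 of the 60725 genes in the count table, and all 10 had enough reads to be tested in every comparison. RNA was sequenced from HAP1 cells, a near-haploid human cell line derived from a chronic myeloid leukaemia. The design was built around the negative elongation factor (NELF). This complex is thought to help hold RNA polymerase II paused shortly after promoters, and the study describes its role in living cells as debated. All libraries came from clone SC9, a single clone that expresses, from an EF1a promoter, a catalytically dead Cas9 fused to the KRAB repressor domain (dCas9-KRAB), so the effects of the repressor itself are shared by every group. A lentivirus with a puromycin resistance gene delivered 1 guide RNA per group, and polyadenylated RNA was taken 144 h after transduction. The 3 control libraries carried a guide against ADAM22, 3 libraries carried a guide against NELFE, and 2 carried a guide against NELFB. The study describes the knockdown replicates as independent biological replicates, and nothing in the labels says whether the control replicates came from separate cultures.

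ERK signalling limits itself. Active ERK induces phosphatases that remove phosphate from ERK and from the related kinases p38 and JNK, and these phosphatases differ in where they act: DUSP1, DUSP4 and DUSP5 are nuclear and inducible, DUSP6 is cytoplasmic and prefers ERK, and DUSP8 prefers JNK and p38. Sprouty and SPRED proteins act further up, between the receptor and RAF, where SPRED proteins bring the RAS inactivator neurofibromin to the membrane. PHLDA1 is a pleckstrin homology-like domain protein whose transcript is induced by ERK and which dampens receptor signalling. Immediate early genes, the class to which DUSP1 belongs, are known for paused polymerase, the step in which NELF is thought to take part.

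The labels were checked first on the targeted genes. Normalized to library size as CPM (reads of a gene per 1e+06 reads), NELFE transcript averaged 49.3 CPM in the control group (SD 1.4, n = 3) and 2.59 CPM in the NELFE knockdown (SD 0.336, n = 3). NELFB transcript averaged 75.3 ± 3.05 CPM (SD, n = 3) with the control guide and 2.92 ± 0.222 CPM (n = 2) with its own guide. ADAM22, which the control guide targets, stood at 12.6 ± 1.29 CPM in its own group, the controls, and at 39.2 ± 8.91 and 38.2 ± 3.68 CPM with the NELFE and NELFB guides. Markers of blood cells were low, and the summed levels of the fibroblast and epithelial markers came mostly from 1 gene each. Of 8 blood cell markers, 4 never exceeded 3 reads in a library, HBG1 had 0 reads, and the summed level ranged from 0.261 to 3.20 CPM, with CD34 the most abundant. Of 7 fibroblast markers, DCN and LUM had 0 reads and COL1A1 was the most abundant, at 22.9 ± 5.85 CPM in control cells. All 7 together summed to 30.0, 20.4 and 19.5 CPM in control replicates 1 to 3, so the markers other than COL1A1 were low. Of 5 epithelial markers, KRT19 had 0 reads and KRT18 was the most abundant, at 28.9 ± 1.14 CPM in control cells. All 5 together summed to 31.3 to 33.6 CPM there.

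The same 3 control libraries served for both knockdowns, so the NELFE and NELFB values given side by side are not independent of each other. The libraries held between 22037423 and 24444185 counted reads, and 3 reads corresponded to between 0.120 and 0.139 CPM. These data come from bulk RNA, in which fewer cells with a transcript and less transcript per cell cannot be told apart. A gene was called where edgeR's quasi-likelihood test gave a Benjamini-Hochberg adjusted p under 0.05 over all tested genes, and every adjusted p below is from that test unless DESeq2 is named.

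Before the comparisons, the third replicate needs mention. In both the control and the NELFE group, replicate 3 was the highest library for 6 of the 10 genes, namely DUSP4, DUSP5, DUSP6, SPRY4, SPRED2 and PHLDA1. The same held for 24.2% of the 16367 genes tested. The gap was widest for SPRY4, at 3.73 times the mean of replicates 1 and 2 with the control guide and 5.99 times with the NELFE guide, and for DUSP6, at 2.32 and 3.18 times. There is no replicate 3 for NELFB. Mitochondrial transcripts took 3.48% of the reads in control replicate 3 and 4.36% in NELFE replicate 3, within or just below the range of 3.72% to 5.01% in the other 6 libraries. Results are therefore given with all 8 libraries and, where it matters, without the pair of replicate 3 libraries, a setting chosen after seeing the data.

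**Figure D1:**
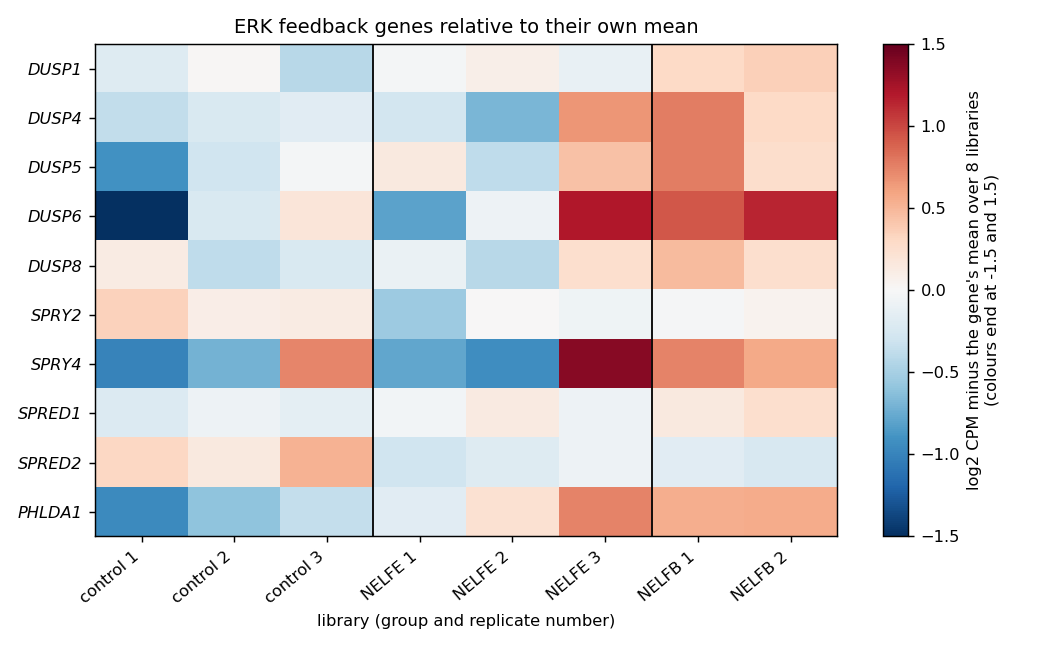
Each cell gives the log2 CPM of 1 gene in 1 library minus the mean of that gene over the 8 libraries (red above, blue below, colours ending at -1.5 and 1.5). SPRY4 and DUSP6 are red in NELFE replicate 3 (1.37 and 1.20) and in both NELFB libraries. SPRY4 is as red in control replicate 3 (0.74), where DUSP6 is pale red (0.18). Both are blue in NELFE replicate 1, and in NELFE replicate 2 SPRY4 is blue and DUSP6 nearly white (-0.077). DUSP6 in control replicate 1 lies beyond the colour scale at -2.35.

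Per length of transcript, the genes spanned a wide range. In control cells SPRED2 was the highest, at 34.8 ± 4.25 TPM (CPM corrected for exon length, SD, n = 3), followed by DUSP1 at 19.6 ± 3.06 TPM and SPRED1 at 18.2 ± 0.791 TPM. SPRY2 (8.28 ± 0.884 TPM), PHLDA1 (6.58 ± 1.27 TPM), DUSP8 (5.22 ± 1.01 TPM) and DUSP5 (4.09 ± 1.18 TPM) came next. DUSP4 (1.62 ± 0.0988 TPM), DUSP6 (1.03 ± 0.735 TPM) and SPRY4 (0.277 ± 0.227 TPM) were the lowest. SPRED2 and DUSP1, SPRED1 and SPRY2, and DUSP5 and DUSP4 were separated by more than their SDs, whereas the other neighbours in this order were not. In the NELFB knockdown DUSP1, at 28.5 ± 1.11 TPM (n = 2), stood above SPRED2 at 24.4 ± 0.698 TPM.

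When all 5 knockdown libraries were compared with the 3 control libraries, PHLDA1 rose 2.06-fold, SPRED2 fell to 0.695 of its control level, and the remaining 8 genes did not pass the test. Thus 1 of 10 genes was called higher, against 13.3% of the 16367 genes tested, and 1 of 10 lower, against 12.7%. The median log2 fold change of the 10 genes was 0.42, against -0.0021 over all tested genes, and 8 of the 10 were above 0, against 49.7% of all genes. For 3 of the 10 genes (PHLDA1, SPRED2 and SPRY2) all 5 knockdown libraries lay on one side of all 3 control libraries, a pattern seen in 28.8% of all tested genes.

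**Figure D2:**
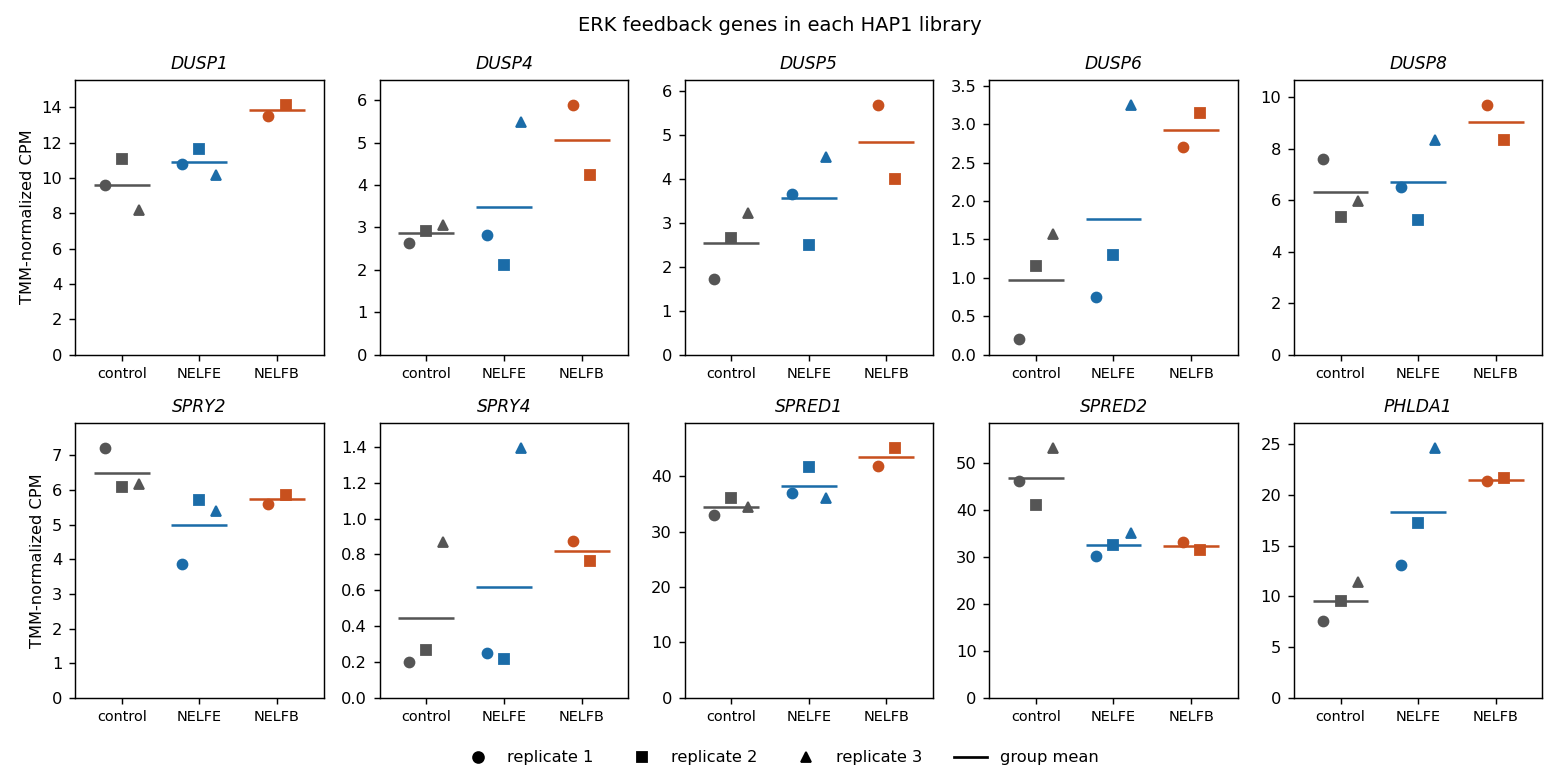
TMM-normalized CPM of each gene (vertical axis, from 0, a separate scale per panel) in every library of the control, NELFE and NELFB groups, with the replicate number as the symbol and the group mean as a line. PHLDA1 is higher and SPRED2 lower in all 5 knockdown libraries than in all 3 control libraries, and for DUSP4, DUSP6 and SPRY4 the NELFE replicate 3 triangle lies near or above the NELFB libraries.

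PHLDA1 (ENSG00000139289.13, chr12:76025447-76031776, minus strand, GRCh38) was the gene with the largest called change. It measured 7.53, 9.58 and 11.4 CPM in control replicates 1 to 3, 13.05, 17.2 and 24.6 CPM in the NELFE knockdown, and 21.3 and 21.7 CPM in the NELFB knockdown. The lowest knockdown library thus stood above the highest control library. Against control, PHLDA1 was 2.06-fold higher in the combined comparison (log2 1.04, SE 0.20, adjusted p = 0.00406). It was 1.92-fold higher in the NELFE knockdown (adjusted p = 0.0197) and 2.27-fold higher in the NELFB knockdown (adjusted p = 0.00829). The combined call was made in 8 of 8 fits that left out 1 library, with log2 fold changes from 0.89 to 1.20. The NELFE call was not made without control replicate 1 (adjusted p = 0.0516), control replicate 2 (0.0651) or NELFE replicate 2 (0.0505), and the NELFB call was not made without NELFB replicate 1 (0.0782) or replicate 2 (0.0569). An antisense RNA, PHLDA1-AS1, shares 553 bases with PHLDA1 exons in GENCODE v44 and had 0 reads of its own. The counting ignored strand, so reads from bases shared in Gencode v24, the version used for counting, were given to neither gene. Whether that version holds the same overlap was not checked.

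The promoter of PHLDA1 is shown with those of SPRED2 and DUSP1. PHLDA1 and SPRED2 were called in opposite directions, and DUSP1 is the one with a TATA box match among the genes searched. Each sequence runs 5′ to 3′ on the gene's own strand from 250 bases before the start site to 50 bases after it (RefSeq, GRCh38.p14), and capitals mark matches, on either strand, to the motifs searched.
PHLDA1 promoter, chr12:76031727-76032026, minus strand: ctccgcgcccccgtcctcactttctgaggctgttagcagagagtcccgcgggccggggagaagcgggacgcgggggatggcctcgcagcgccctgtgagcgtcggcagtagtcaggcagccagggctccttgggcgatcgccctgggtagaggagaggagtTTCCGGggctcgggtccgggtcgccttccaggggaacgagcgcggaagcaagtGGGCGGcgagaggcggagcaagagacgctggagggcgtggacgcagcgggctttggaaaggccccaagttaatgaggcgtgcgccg
SPRED2 promoter, chr2:65432550-65432849, minus strand: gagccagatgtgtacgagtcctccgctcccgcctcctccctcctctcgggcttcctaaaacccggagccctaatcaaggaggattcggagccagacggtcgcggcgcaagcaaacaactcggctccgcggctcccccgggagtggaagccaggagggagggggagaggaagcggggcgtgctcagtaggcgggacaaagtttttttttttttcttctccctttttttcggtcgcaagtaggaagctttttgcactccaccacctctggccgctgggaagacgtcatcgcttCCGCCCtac
DUSP1 promoter, chr5:172771146-172771445, minus strand: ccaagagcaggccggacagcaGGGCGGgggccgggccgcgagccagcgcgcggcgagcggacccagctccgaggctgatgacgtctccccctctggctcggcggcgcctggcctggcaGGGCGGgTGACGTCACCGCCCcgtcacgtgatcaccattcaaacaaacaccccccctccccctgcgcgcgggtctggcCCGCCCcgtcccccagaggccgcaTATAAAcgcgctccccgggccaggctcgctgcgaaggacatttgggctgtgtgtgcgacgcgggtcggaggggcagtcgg
The motifs were a TATA box (TATAAA), a cyclic AMP response element or CRE (TGACGTCA), an AP-1 site (TGANTCA), an ETS site (CCGGAA), a GC box (GGGCGG) and the serum response CArG box. PHLDA1 held 1 ETS match from -89 to -84 and 1 GC box from -36 to -31 relative to the start. SPRED2 held only a GC box downstream of its start, at 41 to 46. DUSP1 held a TATA box at -30 to -25, a CRE at -125 to -118 and 4 GC boxes, of which those at -132 and -117 flank the CRE. Of the 35116 promoters of the same length, 11.5% held the TATA box, 1.85% the CRE, 17.2% the ETS site and 44.95% the GC box. Promoters of DUSP4 and DUSP5 were not searched. The SPRY4 window lay 774 bases from the GENCODE start, and SPRY2 and SPRED2 had 3 and 2 promoters, of which the nearest to that start was used. Promoter sequences were searched for 8 of the 10 genes. Among the other 5, DUSP8 held 2 CREs and 4 GC boxes, SPRY2 an ETS site and 2 GC boxes, SPRY4 and SPRED1 a GC box each, and DUSP6 none of these motifs. The AP-1 and CArG letters were in none of the 8. These matches describe the letters in the window and do not mark bound sites.

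SPRED2 (ENSG00000198369.9, chr2:65310851-65432637, minus strand), an inhibitor of RAF activation, moved the other way. It measured 46.1, 41.1 and 53.2 CPM in control cells, 30.3, 32.5 and 35.1 CPM in the NELFE knockdown, and 33.1 and 31.5 CPM in the NELFB knockdown. All 5 knockdown libraries lay below all 3 control libraries. SPRED2 was at 0.695 of its control level in the combined comparison (log2 -0.53, SE 0.09, adjusted p = 0.00202), and it was called in 8 of 8 fits that left out 1 library, with log2 fold changes from -0.61 to -0.42. The fall was alike in size in the NELFE knockdown (log2 -0.52, adjusted p = 0.0112) and the NELFB knockdown (log2 -0.53, adjusted p = 0.0135), and the difference between them was 0.0069 with a 95% interval from -0.26 to 0.27. Without NELFE replicate 1 the NELFE call was not made (adjusted p = 0.0549), and without either NELFB library the NELFB call was not made (0.10 and 0.103).

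On its own, each knockdown gave the same pair of calls, and the NELFB knockdown added DUSP1 and SPRED1. In the NELFE knockdown 1 of 10 genes was called higher, against 7.92% of the 16852 genes tested, and 1 lower, against 7.04%. The NELFB knockdown called 3 of 10 higher, against 10.6%, and 1 lower, against 8.88%. The median log2 fold change of the 10 genes was 0.22 for NELFE and 0.67 for NELFB, with all-gene medians of -0.0052 and -0.0034. Both NELFB libraries lay above all 3 control libraries for 7 genes (DUSP1, DUSP4, DUSP5, DUSP6, DUSP8, SPRED1 and PHLDA1), against 26.8% of tested genes, and below for SPRY2 and SPRED2, against 25.1%. All 3 NELFE libraries lay above the controls for PHLDA1 alone, against 17.2%, and below for SPRY2 and SPRED2, against 16.1%.

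**Figure D3:**
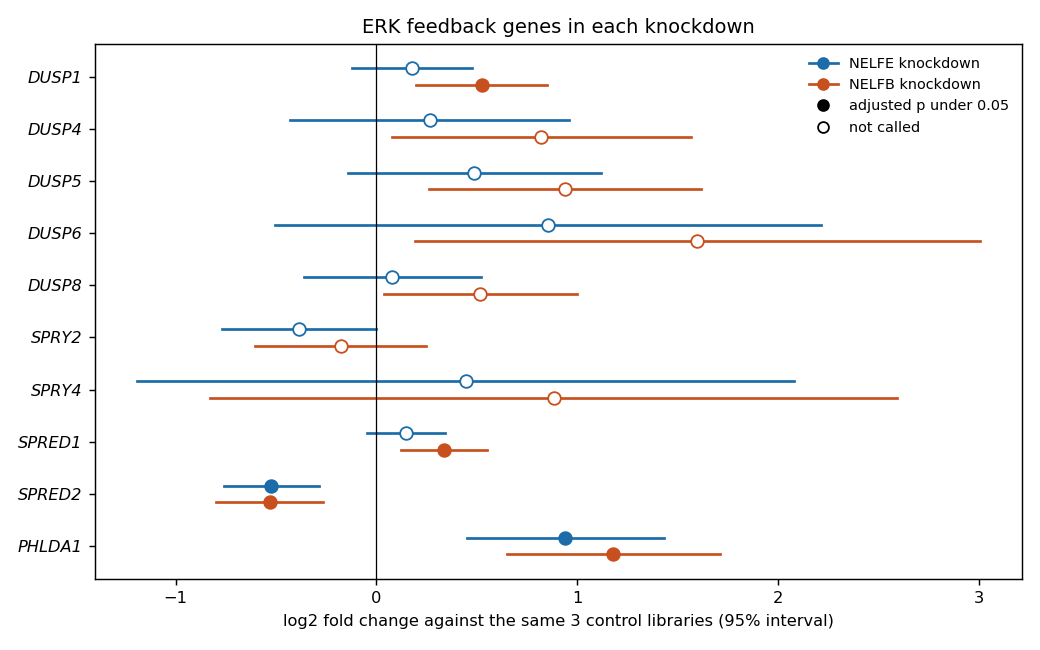
Log2 fold change of each gene (horizontal axis) in the NELFE and NELFB knockdowns against the same 3 control libraries, with its 95% interval; filled points have an adjusted p under 0.05. PHLDA1 and SPRED2 are filled in both, DUSP1 and SPRED1 in the NELFB knockdown, and the intervals of DUSP6 and SPRY4 are the widest.

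DUSP1 (ENSG00000120129.5, chr5:172768096-172771195), a nuclear phosphatase of ERK, p38 and JNK, measured 9.58, 11.1 and 8.18 CPM in control cells. It stood at 10.8, 11.7 and 10.2 CPM in the NELFE knockdown and at 13.5 and 14.1 CPM in the NELFB knockdown. The NELFE values overlapped those of the controls, and both NELFB values lay above all other libraries. DUSP1 was 1.44-fold higher in the NELFB knockdown (log2 0.53, SE 0.15, adjusted p = 0.0319), while the NELFE change did not pass (log2 0.18, adjusted p = 0.415). The difference between the knockdowns was -0.35 (95% interval -0.68 to -0.023) and did not pass the correction over all genes (adjusted p = 0.928). The NELFB call was lost without control replicate 3 (log2 0.42, adjusted p = 0.0875), NELFE replicate 1 (0.0507) or either NELFB library (0.159 and 0.167), and with only the libraries of the comparison (0.0509).

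SPRED1 (ENSG00000166068.12, chr15:38252836-38357249), the paralogue of SPRED2, shared its family role but not its direction. It measured 32.9, 36.1 and 34.4 CPM in control cells, 36.9, 41.7 and 36.1 CPM in the NELFE knockdown, and 41.9 and 45.1 CPM in the NELFB knockdown. Both NELFB libraries were above every other library, if only slightly above NELFE replicate 2. SPRED1 was 1.26-fold higher in the NELFB knockdown (log2 0.34, SE 0.10, adjusted p = 0.0340), and not called in the NELFE knockdown (log2 0.15, adjusted p = 0.285) or in the combined comparison (log2 0.23, adjusted p = 0.0754). Of the 8 fits that left out 1 library, 3 made the NELFB call, and adjusted p-values in the other 5 ran from 0.0517 without NELFE replicate 1 to 0.221 without NELFB replicate 2. The call was also not made without a filter on low counts (0.0567). A model with the replicate number as a block called SPRED1 in the combined comparison (log2 0.21, adjusted p = 0.0403). The labels do not say that a replicate number marks a shared batch.

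DUSP4 and DUSP5 are the other nuclear inducible phosphatases among the 10, and DUSP5 acts on ERK alone. DUSP5 (ENSG00000138166.5, chr10:110497907-110511533) measured 1.72, 2.66 and 3.22 CPM in control cells, 3.66, 2.503 and 4.51 CPM in the NELFE knockdown, and 5.69 and 3.99 CPM in the NELFB knockdown. DUSP4 (ENSG00000120875.8, chr8:29333064-29350684) measured 2.65, 2.93 and 3.05 CPM, then 2.83, 2.11 and 5.48 CPM, and 5.90 and 4.25 CPM in the same order of groups. In both genes the NELFB libraries lay above the controls, and the NELFE libraries overlapped them. In the NELFB knockdown neither was called with the settings used throughout, at adjusted p = 0.0548 for DUSP5 (log2 0.94) and 0.111 for DUSP4 (log2 0.82). Other settings did call them: without a filter on low counts edgeR gave 0.00216 for DUSP5 and 0.00823 for DUSP4, DESeq2 gave 0.0312 for DUSP5, and edgeR with only the control and NELFB libraries gave 0.0317 for DUSP4. Of the fits that left out 1 library, DUSP5 was called without control replicate 3 (0.0397), NELFE replicate 2 (0.0493) or NELFE replicate 3 (0.0372), and DUSP4 without NELFE replicate 3 (0.0201). With the replicate number as a block both were called in the NELFB knockdown, at adjusted p = 0.00478 for DUSP5 and 0.00813 for DUSP4. For DUSP4 the positive NELFE value (log2 0.27, adjusted p = 0.611) rested on replicate 3, and was -0.22 without it.

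DUSP6 (ENSG00000139318.7, chr12:89347235-89352501), the cytoplasmic ERK phosphatase often read as a gauge of ERK activity, was scarce and uneven here. It had 5, 26 and 36 reads in the controls, 18, 30 and 70 in the NELFE knockdown, and 65 and 74 in the NELFB knockdown. In CPM these were 0.200, 1.15 and 1.57, then 0.748, 1.29 and 3.25, then 2.70 and 3.14. The NELFE values overlapped those of the controls and of the NELFB libraries, and both NELFB values lay above all 3 controls. Its log2 fold change was 1.20 in the combined comparison (SE 0.59, adjusted p = 0.163) and 1.599 in the NELFB knockdown (95% interval 0.19 to 3.01, adjusted p = 0.102). With 1 library left out the combined value ranged from 0.70 (without control replicate 1) to 1.74 (without control replicate 3), and the NELFE value of 0.85 from 0.078 (without NELFE replicate 3) to 1.39. Without NELFE replicate 3 the NELFB value was called (1.5997, adjusted p = 0.0417), and in the other 7 such fits it was not. A model with the replicate number as a block also called it (log2 2.32, adjusted p = 0.000489). An antisense lncRNA, ENSG00000274021, shares 1105 bases with DUSP6 exons in GENCODE v44 (28.6% of them) and had 0 to 2 reads per library. Where Gencode v24 holds the same overlap, which was not checked, reads from those bases were likewise given to neither gene.

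SPRY4 (ENSG00000187678.8, chr5:142310427-142326455), a Sprouty inhibitor of RAS activation, had the fewest reads. It had 5, 6 and 20 reads in the controls, 6, 5 and 30 in the NELFE knockdown, and 21 and 18 in the NELFB knockdown. The high libraries were control replicate 3, NELFE replicate 3 and both NELFB libraries, so that the groups overlapped. No comparison passed the test with the settings used throughout (combined log2 0.64, SE 0.64, adjusted p = 0.492). With the replicate number as a block the NELFB change did (log2 2.02, adjusted p = 0.00323). With 1 library left out the combined value ranged from 0.24 (without NELFE replicate 3) to 1.56 (without control replicate 3), and no such fit called it. The intervals ran from -1.19 to 2.08 for NELFE and from -0.83 to 2.59 for NELFB.

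SPRY2 (ENSG00000136158.10, chr13:80335976-80341126) and DUSP8 (ENSG00000184545.10, chr11:1554051-1572271) complete the set. SPRY2 measured 7.21, 6.07 and 6.18 CPM in control cells, 3.87, 5.70 and 5.39 CPM in the NELFE knockdown, and 5.61 and 5.86 CPM in the NELFB knockdown. All 5 knockdown libraries lay below the controls and the change did not pass the test (combined log2 -0.30, adjusted p = 0.178). DUSP8 measured 7.62, 5.36 and 5.96 CPM in control cells, 6.52, 5.22 and 8.36 CPM in the NELFE knockdown, and 9.72 and 8.36 CPM in the NELFB knockdown. It was not called in the NELFB knockdown (log2 0.52, adjusted p = 0.118) except, among the fits that left out 1 library, without control replicate 1 (0.67, adjusted p = 0.0437). With the replicate number as a block it was called there as well (log2 0.59, adjusted p = 0.0228). Its NELFE value of 0.080 turned to -0.11 without NELFE replicate 3.

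Setting aside the replicate 3 libraries of control and NELFE changed how many of the 10 genes were called in the NELFB comparison, and in no other comparison. With the 6 remaining libraries, the NELFB call of a higher level was made for 6 genes: DUSP4 (log2 0.86), DUSP5 (1.14), DUSP6 (2.13), SPRY4 (1.79), SPRED1 (0.33) and PHLDA1 (1.33). DUSP1 was no longer called (0.41, adjusted p = 0.0605), and SPRED2 was again lower (-0.44). Over all genes this setting called 2018 higher, against 1793 with all libraries. In the NELFE knockdown PHLDA1 (0.82, adjusted p = 0.00829) and SPRED2 (-0.48, adjusted p = 0.00797) were still the called genes, and the value of DUSP4 turned to -0.17. The combined comparison also kept both calls, at 1.09 for PHLDA1 and -0.46 for SPRED2.

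**Figure D4:**
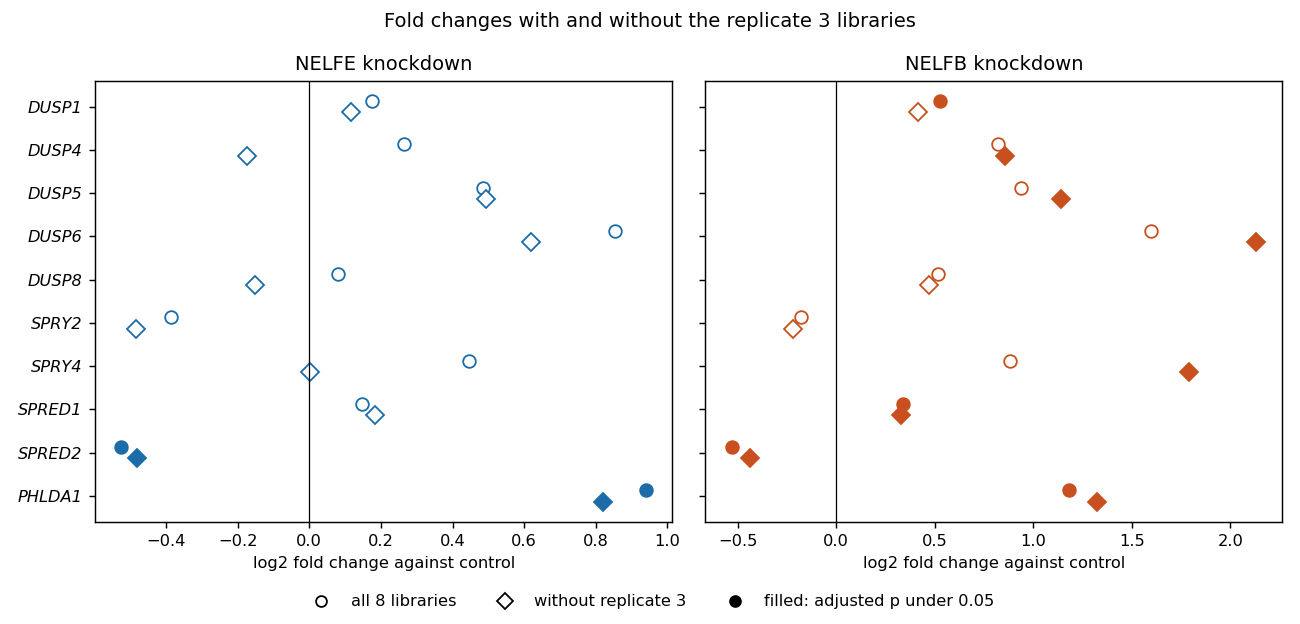
Log2 fold change of each gene against control in the NELFE knockdown (left) and the NELFB knockdown (right), with all 8 libraries (circles) and without the replicate 3 libraries of control and NELFE (diamonds); filled symbols have an adjusted p under 0.05. In the NELFB panel the diamonds of DUSP4, DUSP5, DUSP6 and SPRY4 are filled and their circles are open.

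The knockdowns were also compared with each other. With edgeR 0 of 10 genes passed in either direction, against 0.237% of tested genes called higher in NELFE and 0.0771% called lower. At an unadjusted p under 0.05 there was 1 gene, DUSP1, against 863 of the 16852 genes tested, and DESeq2 called 0 of the 10. The NELFE knockdown gave the lower fitted level in 9 of the 10 genes, with SPRED2 as the exception, and the median difference was -0.39 on the log2 scale. Over all tested genes the NELFE level was the higher in 48.7%, with a median difference of -0.0055. DUSP1 and SPRED1 were lower in all 3 NELFE libraries than in both NELFB libraries, against 12.2% of tested genes. For PHLDA1 the difference was -0.24 (95% interval -0.76 to 0.29) and for DUSP6 -0.75 (-2.08 to 0.59). Without both replicate 3 libraries the difference was -1.51 for DUSP6, -1.79 for SPRY4 (-0.44 with all libraries) and -1.03 for DUSP4 (-0.56), and none of the 10 genes was called. With 1 library left out DUSP6 ranged from -1.52 to -0.37, SPRY4 from -1.80 to -0.028 and DUSP4 from -1.04 to -0.29, each lowest without NELFE replicate 3.

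Relatives of the 10 genes were examined as context, and several of them changed more clearly. Of the 5 other MAP kinase phosphatases, 2 rose in the combined comparison, against 13.3% of all tested genes, and 2 fell, against 12.7%. DUSP2 did not pass (log2 0.049). DUSP10, a phosphatase of p38 and JNK, averaged 3.63 ± 1.04 CPM in the controls and rose to 10.5 ± 3.64 in the NELFE and 14.6 ± 3.99 in the NELFB knockdown (combined log2 1.74, adjusted p = 0.00199). DUSP16, of the same class as DUSP8 and DUSP10, rose from 104 ± 6.62 to 134 ± 13.5 and 143 ± 13.6 CPM (log2 0.40, adjusted p = 0.00565). Both cytoplasmic ERK phosphatases related to DUSP6 fell. DUSP9 fell from 92.5 ± 2.38 to 59.3 ± 0.764 and 43.6 ± 0.770 CPM (log2 -0.80, adjusted p = 0.000847), and DUSP7 from 40.9 ± 3.53 to 31.8 ± 3.00 and 28.9 ± 0.807 CPM (log2 -0.42, adjusted p = 0.00672). Per length, DUSP9 at 137 TPM in control cells exceeded each of the 10 genes, and DUSP6, its class member among the 10, was at 1.03 TPM. DUSP9 was lower in NELFB than in NELFE libraries without overlap, a difference of 0.44 on the log2 scale (95% interval 0.27 to 0.61, adjusted p = 0.0504 by edgeR), which edgeR did not call and DESeq2 did (adjusted p = 0.000951). These 4 phosphatases were called in 8 of 8 fits that left out 1 library.

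**Figure D5:**
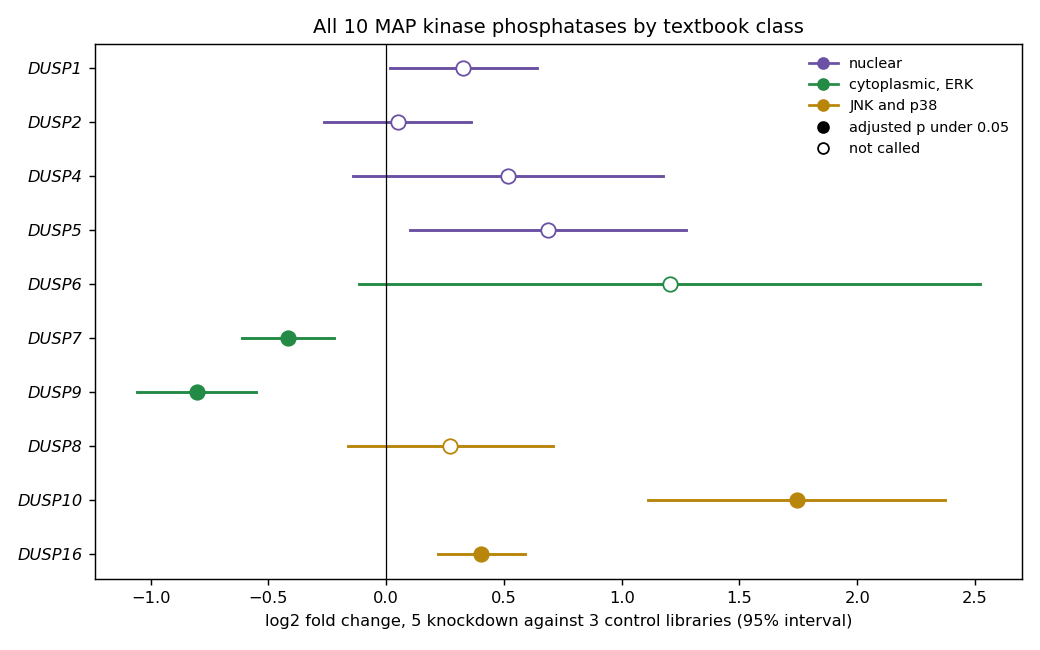
Log2 fold change of the 10 MAP kinase phosphatases in the combined comparison of 5 knockdown with 3 control libraries, with 95% intervals, coloured by textbook class; filled points have an adjusted p under 0.05. DUSP7 and DUSP9 lie below 0, DUSP10 and DUSP16 above it, and the 4 nuclear phosphatases and DUSP6 and DUSP8 are open.

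The Sprouty and SPRED families were also mixed. SPRED3, the third SPRED gene, rose from 3.54 ± 0.529 CPM in control cells to 8.66 ± 1.23 and 11.4 ± 3.06 CPM in the NELFE and NELFB knockdowns (combined log2 1.46, adjusted p = 0.000697). SPRY3 rose from 5.37 ± 1.01 to 10.5 ± 1.54 and 10.7 ± 0.0787 CPM (log2 0.98, adjusted p = 0.00105). SPRY1 (log2 0.053) and PHLDA3 did not pass, and PHLDA2 had too few reads to be tested. Of the 4 relatives tested 2 were thus called higher, against 13.3% of all tested genes, and 0 lower, against 12.7%. Within the SPRED family the combined comparison therefore gave SPRED3 higher, SPRED2 lower and SPRED1 not called.

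Components of the pathway itself were counted from lists of 20 cascade genes, 13 receptors and 15 ligands. In the combined comparison 0 of 20 genes of the RAS-RAF-MEK-ERK cascade were called higher by edgeR or DESeq2, and 2 were called lower by either. Over all tested genes edgeR called 13.3% higher and 12.7% lower. At an unadjusted p under 0.05 there were 4 of the 20, against 6306 of the 16367 genes tested. ARAF, a RAF kinase, was among those called lower (log2 -0.45, adjusted p = 0.000684). Of the 12 receptors tested 4 were called higher, against 13.3% of all tested genes, and 1 lower, against 12.7%. FGFR1, FGFR2, PDGFRA and IGF1R rose by 0.27 to 0.48 on the log2 scale and FGFR4 fell (-1.04, adjusted p = 0.000961). The FGFR1 call was made in 2 of 8 fits that left out 1 library, and that of IGF1R in 6. Of the 6 ligands tested, edgeR and DESeq2 called 0, against 13.3% of all tested genes called higher and 12.7% lower by edgeR. At an unadjusted p under 0.05 there was 1 ligand, against 6306 of the 16367 genes tested. FGF2, the most abundant ligand, was at 50.01 ± 6.89 CPM in control cells (log2 0.024). Among 11 further inhibitors 2 were called higher, RASAL2 and LZTR1, against 13.3% of all tested genes, and 0 lower, against 12.7%. LZTR1 was called in 1 of 8 fits that left out 1 library.

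Other genes that ERK induces did not share 1 direction. Of 10 such genes 3 were called higher in the combined comparison, against 13.3% of all tested genes, and 2 lower, against 12.7%. CCND1 (log2 1.86, adjusted p = 0.00278), ETV5 (1.46, adjusted p = 0.00537) and EPHA4 (0.50, adjusted p = 0.00933) rose, and EPHA2 (-0.29, adjusted p = 0.0136) and PLAUR (-0.68, adjusted p = 0.0250) fell. PLAUR was called in 4 of 8 fits that left out 1 library (adjusted p = 0.0906 without control replicate 1), and EPHA2 in all but that without control replicate 2 (0.0796). ETV5, a transcription factor that often follows DUSP6 and SPRY4, measured 1.56, 1.86 and 3.44 CPM in control cells, 3.95, 4.96 and 7.30 CPM in the NELFE knockdown, and 8.01 and 7.26 CPM in the NELFB knockdown. Like DUSP6 and SPRY4 it was highest in replicate 3 of both groups that have one, but unlike them its control and knockdown libraries did not overlap. In the p38 and JNK branches 2 of 11 genes were called higher, MAPK8 and MAPK10, against 13.3% of all tested genes. MAP2K6 and MAP2K7 were the 2 called lower, against 12.7%.

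Of 10 immediate early genes, FOS, FOSB, JUNB and EGR3 were called higher in the combined comparison (against 13.3% of all tested genes), 2 in the NELFE knockdown (against 7.92%) and 6 in the NELFB knockdown (against 10.6%). With 1 library left out the combined call was made in 3 of 8 fits for FOS, 5 for FOSB, 6 for JUNB and 7 for EGR3, and without a filter on low counts it was not made for FOS (adjusted p = 0.053), FOSB (0.122) or EGR3 (0.0605). Their summed level was 179, 219 and 174 CPM in control cells, 256, 433 and 217 CPM in the NELFE knockdown, and 524 and 724 CPM in the NELFB knockdown. EGR1, the most abundant, measured 18.7, 60.1 and 9.31 CPM, then 60.5, 194 and 23.8 CPM, then 207 and 357 CPM. EGR1 was thus lowest in replicate 3 of the control and NELFE groups, where SPRY4 and DUSP6 were highest. Of 5 epithelial markers 2 could be tested, KRT8 and KRT18, and both were called higher in the combined comparison, against 13.3% of all tested genes. EPCAM, CDH1 and KRT19 had too few reads to be tested. Without both replicate 3 libraries neither was called (adjusted p = 0.1251 and 0.0773), and KRT8 was not called without a filter on low counts (0.0727). With 1 library left out KRT8 was called in 7 of 8 fits and KRT18 in 6. The summed epithelial level was 31.3 to 33.6 CPM in control cells, 36.7 to 57.9 CPM in the NELFE and 49.6 to 74.5 CPM in the NELFB knockdown. CD34, the 1 of 8 blood cell markers tested, averaged 0.0989 ± 0.0484 CPM in the controls and 0.742 ± 0.525 and 1.84 ± 1.34 CPM in the NELFE and NELFB knockdowns (combined adjusted p = 0.0142). Its control mean lay below the level of 3 reads, 0.120 to 0.139 CPM. CD34 therefore passed the expression filter only through the knockdown libraries, so no support is drawn from its call. The CD34 call was not made without control replicate 1 (0.061), control replicate 3 (0.0692), both replicate 3 libraries (0.11) or a filter on low counts (0.0973). The part of any of these in the changes of the 10 genes was not tested.

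For each of the 10 genes the genes with the most similar profile were sought, by the root-mean-square difference of centred log2 CPM over the 8 libraries, among genes with a mean log2 CPM of at least 1. PHLDA1 was closest to ATRNL1 (0.14) and ID3 (0.15), against a spread of 0.58 of PHLDA1 around its own mean. SPRED2 was closest to CARS1 (0.065) and MGST2 (0.068), against a spread of 0.27. For SPRY4 these were ANXA1 (0.30) and CSRP1 (0.40), and for DUSP6 SAMD5 (0.50) and CNR1 (0.52), against spreads of 0.88 and 1.11. Genes below that minimum, where DUSP6 and SPRY4 themselves lie in control cells, were not searched. The nearest genes were TOX3 and ELMOD2 for DUSP1, TIMP3 and NEBL for DUSP4, RUNX1 and LIMCH1 for DUSP5, and STARD5 and KDELR3 for DUSP8. They were ZNF506 and KATNAL2 for SPRY2 and STK19 and DMTF1 for SPRED1. The 8 points share libraries and groups, so these are descriptions only.

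The guide RNAs were compared with the start sites of the 10 genes, since dCas9-KRAB can also repress where a guide pairs in part. Both guides of 19 bases are shown because their last bases, next to the PAM, set such partial pairing.
NELFE guide, chr6:31958918-31958936, minus strand, PAM GGG: gggcgcggccggagaccgt
NELFB guide, chr9:137255369-137255387, plus strand, PAM GGG: gccgagctggagggcgccg
Within 500 bases of the starts of the 10 genes, the longest run of matching bases next to an NGG PAM was 2 to 4 bases for the NELFE guide and 4 to 8 bases for the NELFB guide. At SPRED2, the gene that fell, it was 4 and 6 bases. The longest, 8 bases at DUSP8, was reached or passed by 5.62% of 16175 genes, and 36.3% had at least 4 bases for the NELFE guide.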

How the data were processed

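RNA-seq libraries (TruSeq, single-end reads of 65 bases) were aligned by the authors to GRCh38 with STAR 2.5.4a, after FastQC 0.11.6, and the deposited values are raw counts per Gencode v24 gene, unstranded and not normalized. STAR counts only reads that fall on 1 gene, so reads shared with overlapping genes are missing. Symbols, positions and lengths came from GENCODE v44, matched by Ensembl identifier for all 10 genes.

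Tests used edgeR 4.0.16 under R 4.3.3, with its default expression filter, TMM factors, a robust quasi-likelihood fit and p-values adjusted after Benjamini and Hochberg, and compared 5 knockdown against 3 control libraries or, for the single knockdowns, fitted a 3-group model. CPM are TMM-normalized, TPM use exon lengths, and ± is the SD. The test was checked on simulated data. Sequences and motifs came from RefSeq (GRCh38.p14) tables.

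The 10 genes and the gene lists were chosen with earlier results of these data known. Named are the 10 genes, the guide targets, the called genes of each context list or its 2 most abundant, and the 2 nearest profiles per gene. ERRFI1 was chosen after its values were seen. Not every called gene of the cascade list is reported here. Alternatives were DESeq2 1.42.0, its size factors in edgeR, other filters on low counts, a replicate block, other sets of libraries and each library left out.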

Additional observations from a re-analysis of the deposited data

Results flagged for a closer look

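ERRFI1, an inhibitor of the EGF receptor that is itself induced by ERK, stood out among the pathway genes because the knockdowns moved it in opposite directions. It measured 12.9, 18.0 and 20.5 CPM in control cells, 30.1, 29.4 and 37.9 CPM in the NELFE knockdown, and 8.80 and 6.88 CPM in the NELFB knockdown, with no overlap between the 3 groups. Against control it was higher in the NELFE knockdown (log2 0.92, edgeR adjusted p = 0.00844) and lower in the NELFB knockdown (log2 -1.12, adjusted p = 0.00568), although the latter was not called without NELFB replicate 2 (log2 -0.96, adjusted p = 0.0668). The test of the difference gave 2.04 on the log2 scale (adjusted p = 0.00116), and without NELFB replicate 2 it gave 1.88 (adjusted p = 0.0542). The NELFB guide matches 11 bases next to a PAM within 500 bases of its start, and the part of that match in the low NELFB values was not tested.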

How the results depend on the processing

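The combined calls of PHLDA1 and SPRED2 were made under all 15 alternatives run. The number of the 10 genes called higher in the combined comparison was 1 with all libraries, 2 without a filter on low counts (DUSP5 added), 2 in the 3-group model (SPRED1 added) and 1 to 2 with 1 library left out (DUSP5 added without NELFE replicate 2, SPRED1 without NELFE replicate 3). All genes called then ranged from 1360 to 2526 higher and from 1328 to 2599 lower. For NELFE the leave-one-out ranges were 0 to 1 of the 10 genes higher and 0 to 1 lower, and 561 to 1620 genes higher and 429 to 1503 lower over all genes. For NELFB they were 0 to 6 higher and 0 to 1 lower, and 380 to 2218 higher and 223 to 2098 lower; the 0 values came without either NELFB library, and 6 without NELFE replicate 3. Without both replicate 3 libraries 6 of the 10 were called higher for NELFB, and 4 with DESeq2 (DUSP5 added, 1699 of all genes called higher) or without a filter (DUSP4 and DUSP5 added, SPRED1 lost, 2154 of all genes called higher).

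With the replicate number as a replicate block, DUSP5 (adjusted p = 0.0458) and SPRED1 (0.0403) joined PHLDA1, 3 of the 10 genes, in the combined comparison, and 8 of the 10 genes were called higher for NELFB, all but SPRY2 and SPRED2, with SPRY4 at log2 2.02 (adjusted p = 0.00323). Over all genes the block called 2797 higher in the combined comparison (2182 without it) and 2499 higher for NELFB (1793 without it). It called 2408 higher and 2355 lower for NELFE and 2312 lower for NELFB. The labels do not say that a number marks a shared batch, and correlations of same-numbered deviations from group means ran from -0.022 to 0.48, with control and NELFE at 0.30, 0.050 and 0.48. Not every pair exceeded 0.1, so the block was not taken as the design. Each control library correlated best with the NELFE library of its own number, and control replicate 3 gave -0.32 and -0.33 with NELFE replicates 1 and 2. Deviations within a group cancel out, so these negative values are tied to the 0.48 and are not separate evidence. For the same reason both NELFB libraries gave values of equal size and opposite sign with any other library. These correlations therefore cannot decide whether a number marks a batch. Whether the numbers mark a shared batch is not known.

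Between the knockdowns 40 genes were called higher in NELFE and 13 lower. This became 66 and 95 without a filter and 69 and 126 with the block. The number lower became 36 with DESeq2, 8 with at least 10 counts in every library, 8 with only the libraries of the comparison and 82 without both replicate 3 libraries. With 1 library left out it ranged from 24 to 47 higher and from 2 to 34 lower.

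Some values changed sign between settings, none of them called. In the NELFE knockdown these were DUSP8 (-0.11 to 0.23 with 1 library left out, below 0 without control replicate 2 or NELFE replicate 3, and -0.15 without both replicate 3 libraries), DUSP4 (-0.22 to 0.52, below 0 without NELFE replicate 3, and -0.17 without both) and SPRY4 (-0.91 to 1.36, below 0 without NELFE replicate 3). SPRED2 between the knockdowns became -0.073 with the block, -0.051 to 0.058 with 1 library left out and -0.044 without both replicate 3 libraries. In the combined comparison FGF2 ranged from -0.096 to 0.10 with 1 library left out and was -0.020 without both replicate 3 libraries. COL1A1 ranged from -0.26 to 0.095 with 1 library left out. ERRFI1 in that comparison was 0.40 with the settings used throughout and -0.10 in the 3-group model. The cause was not tested. With 1 NELFB library left, it was assumed to vary like the other groups. DUSP6 and SPRY4 rest on as few as 5 reads per library.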
